A study of Macaca mulatta with 56 samples.

Results

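The comparison described here asked whether long-term estradiol acted on the hippocampus differently from the neocortex of the same animals. It used 42 of the 56 messenger RNA libraries of the series, namely those of the hippocampus, the occipital cortex and the prefrontal cortex of 14 female rhesus macaques (Macaca mulatta) of 19.4 to 23.2 years. All 14 animals ate a Western-style diet, with 36% of its calories from fat against 13% in chow, and all lost ovaries and uterus about 6 weeks after the diet began. The 7 OvH-HT animals (numbers 36 to 42) then carried capsules that released estradiol and held their serum estradiol at 82.1 pg/mL. The 7 OvH animals (numbers 30 to 35 and 43) carried empty capsules and had 6.6 pg/mL. The length of treatment is stated in one place as 30 months and in another as 32 months. Both groups were aged, without ovaries and on the same diet, so animals with ovaries or on chow do not enter the comparison.

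For each animal the log2 of the normalised read value plus 1 in the hippocampus was reduced by the mean of the same quantity in its occipital and prefrontal cortex. This regional difference was then compared between the 7 OvH-HT and the 7 OvH animals, and the result is called the HT contrast below. A positive HT contrast means that the hippocampus stood higher against the neocortex in the estradiol animals than in the placebo animals. It can come from a higher level in the hippocampus, a lower level in the neocortex, or both, so the HT effect within each region is given beside it.

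Estradiol acts through nuclear receptors that bind DNA and through receptors at the cell membrane. In the hippocampus it is known from rodents and monkeys for effects on dendritic spines, synaptic plasticity and the formation of new granule neurons. The neocortex carries the same receptors, and the prefrontal cortex in particular has been studied for its response to estradiol in aged female monkeys. Myelinating oligodendrocytes, astrocytes and the cells of blood vessels also respond to estradiol in various settings.

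Names need care in this table. For part of the identifiers, the transcript measured in the amygdala seems not to be the one measured in hippocampus and neocortex. Levels alone were compared, and the cause of the mismatch was not tested. A row was therefore named only where its mean log2 level in hippocampus and neocortex was within 2 of that in the amygdala. That limit is a 4-fold difference, and 13520 of 17807 rows (75.9%) were inside it. When the rows of the other regions were moved down by 50, 33.6% were inside it, so some names given here will be wrong. Hippocampus and neocortex lay within the same limit of each other for 97.8% of rows. The values and tests of a row do not depend on its name.

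Libraries of 2 animals stood apart in checks that did not use the treatment groups. The hippocampus libraries labelled animal 30 and animal 43, both OvH, carried transcripts of the Y chromosome, although all animals are labelled female. RPS4Y1 had 7532 normalised reads in the hippocampus library labelled 30 and 16120 in that labelled 43, against at most 1.43 in the other 40 libraries. DDX3Y had 3025 and 1873 against at most 2.34, and USP9Y had 4306 and 2344 against at most 2.34. The neocortical libraries of both animals held no such signal.

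The same pair of libraries lacked the regional profile of the other hippocampus libraries. FIBCD1, a marker of CA1 pyramidal neurons, stood 4.09 to 6.91 above neocortex in the other 12 animals (median 5.64), but at 0.66 in animal 30 and at -0.08 in animal 43. C1QL2, a secreted synaptic protein of dentate granule cells, stood 1.65 to 3.70 above neocortex in the other 12 and 0.08 and 0.59 above it in animals 30 and 43. Among neocortical markers, RORB, a transcription factor of layer 4, lay at -5.56 to -2.72 in the other 12, at -0.56 in animal 43 and at 1.70 in animal 30. HS3ST2, a heparan sulfate sulfotransferase of neurons, lay at -4.36 to -2.23 in the other 12 and at -0.32 and -0.47 in animals 30 and 43. Of 17 markers of hippocampal and neocortical principal neurons that could be named, 8 had both animals outside the range of the other 12. BCL11B and FEZF2 were listed as neocortical and were higher in the hippocampus in all 12 other animals.

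Across the 500 rows used to compare animals, the hippocampus library labelled 30 correlated at 0.20 with the neocortex of its own animal and that labelled 43 at 0.23. The other 12 hippocampus libraries gave 0.56 to 0.89. The library labelled 30 correlated best with the neocortex of animal 43, at 0.49. The library labelled 43 correlated best with that of its own animal, and at most 0.17 with any other. The labels were kept. Results are given for all 14 animals. The counts, the list medians and many of the genes described singly are also given without animals 30 and 43, which leaves 7 OvH-HT and 5 OvH animals. Some list members are given with all 14 animals only.

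**Figure D1:**
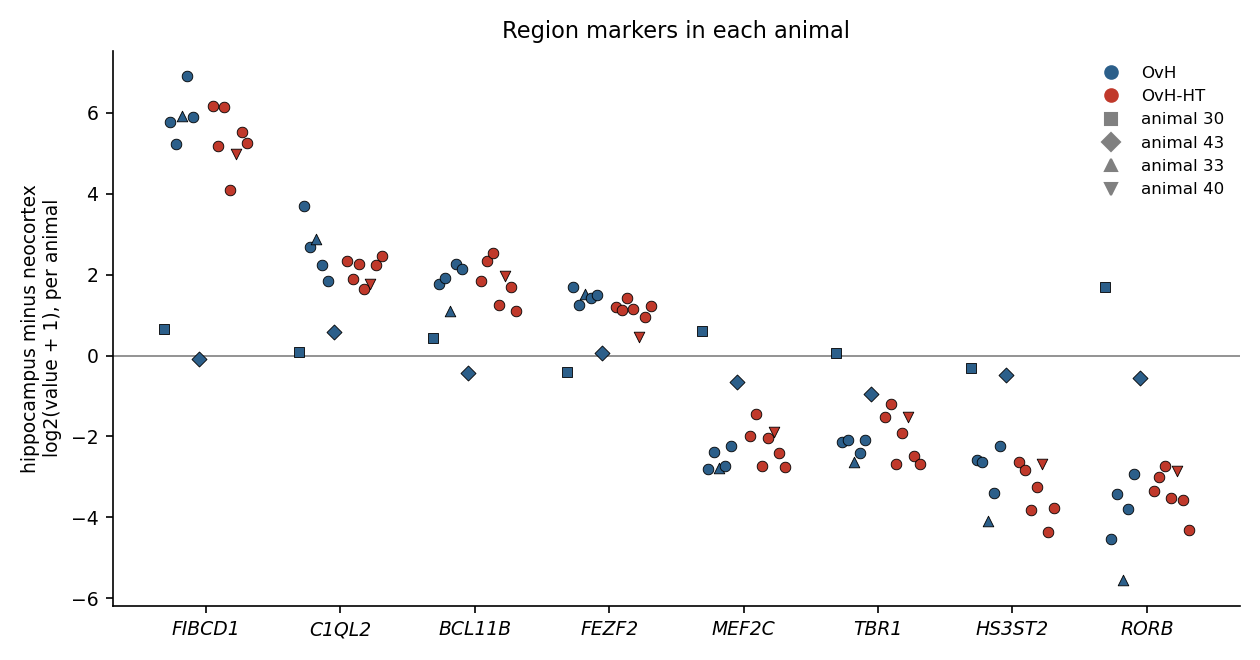
Difference between hippocampus and neocortex in log2(value + 1) for 8 markers of principal neurons, 1 point per animal, OvH in blue and OvH-HT in red, with animals 30, 43, 33 and 40 marked by shape. For FIBCD1 the points of animals 30 and 43 lie at 0.66 and -0.08 and the other 12 between 4.09 and 6.91.

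Hippocampus libraries also differed in choroid plexus. TTR, the transthyretin that choroid plexus epithelium makes in large amounts, had 1325282 normalised reads in animal 33 (OvH) and 1462333 in animal 40 (OvH-HT). The other hippocampus libraries apart from 30 and 43 had 2138 to 49610 (median 3627), and those labelled 30 and 43 had 114 and 27. The summed level of the 7 choroid plexus and ependymal markers shown ran from 615 to 1334000 in OvH hippocampus and from 2954 to 1470000 in OvH-HT hippocampus. Part of the results is also given without animals 33 and 40. The 42 libraries held 34.63 to 90.2 mega-reads (median 62.1). The log2 ratio of hippocampal to neocortical depth was -0.58 to 0.59 in OvH-HT and -0.86 to 0.47 in OvH, and no difference was detected (two-sided exact permutation p = 0.535, n = 7 per group).

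No transcript passed the test for a difference in the HT effect between hippocampus and neocortex. Of 16354 rows tested by limma, 0 (0%) had an adjusted p under 0.05, and the smallest adjusted p was 0.999. An unadjusted p under 0.05 was reached by 395 rows (2.42%), of which 275 (1.68%) had a positive HT contrast and 120 (0.734%) a negative one. The median HT contrast was 0.02, and 53.9% of rows lay above 0. When the libraries were scaled to equal totals the split of the unadjusted calls was 317 positive to 67 negative. Without animal 40 the unadjusted count was 188, and without animal 42 it was 692. edgeR on the recovered reads called 0 rows (0%), with 554 at an unadjusted p under 0.05.

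DESeq2 on the recovered reads called 1 row (0.00611%), NMRK2, a kinase that makes the NAD+ precursor nicotinamide mononucleotide. The level of NMRK2 was below the limit for naming, and it is named because DESeq2 called it. In hippocampus NMRK2 had 8.91 ± 4.56 normalised reads in OvH-HT and 31.7 ± 28.0 in OvH (SD, n = 7 each), and in neocortex 46.9 ± 13.8 and 37.9 ± 18.3. The regional difference of NMRK2 ran from -3.40 to -1.64 in OvH-HT (median -1.88) and from -1.29 to 0.90 in OvH (median -0.56), so the groups did not overlap. NMRK2 was the only row of 16354 (0.00611%) in which all OvH-HT animals lay below all OvH animals, and in 5 rows (0.0306%) all lay above. Among so many rows some separate fully by chance, so the separation is not further support for NMRK2. The HT contrast was -1.93 (SE 0.40), with an adjusted p = 0.999 in limma, 0.165 in edgeR and 0.0077 in DESeq2. Leaving out animals 30 and 43 gave NMRK2 an HT contrast of -1.56 (SE 0.37, limma adjusted p = 0.831). Groups that are already apart cannot come to overlap when animals are left out, so the separation was not tested by this.

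Within each region taken alone no row passed either. In hippocampus 0 of 16354 rows (0%) had an adjusted p under 0.05 by limma, with 257 rows (1.57%) higher and 79 (0.483%) lower at an unadjusted p under 0.05, and 53.3% of rows above 0. Without animals 30 and 43 the hippocampal counts were 600 rows (3.67%) higher and 261 (1.6%) lower, again with 0 (0%) past the adjusted threshold. In neocortex, as the mean of both cortical regions, 0 rows (0%) passed, with 414 (2.53%) higher and 429 (2.62%) lower at the unadjusted level, and 49.9% above 0. DESeq2 called 12 rows in hippocampus and 5 in neocortex. The 12 in hippocampus include the Y-linked KDM5D, UTY, RPS4Y1, DDX3Y, USP9Y, ZFY and RPS4Y2, which were high in the libraries labelled 30 and 43. These Y-linked transcripts and NMRK2 and KIAA1755 were named after their values were seen.

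KIAA1755 was the leading hippocampal row in limma (adjusted p = 0.19, and 0.0423 with equal totals). KIAA1755 had 1688 ± 379 normalised reads in OvH-HT hippocampus and 754.6 ± 171 in OvH hippocampus, and 896.7 ± 189 and 536.9 ± 168 in neocortex (SD, n = 7 each). The estimated HT effect of KIAA1755 was 1.17 in hippocampus and 0.80 in neocortex, and the HT contrast was 0.38 (SE 0.20, limma adjusted p = 0.999), and 0.27 without animals 30 and 43.

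The unadjusted count was larger without animals 30 and 43, and no row was called. Of 16342 rows then tested, 0 (0%) had an adjusted p under 0.05 by limma (smallest 0.831). At an unadjusted p under 0.05 there were 648 positive rows (3.97%) and 259 negative rows (1.58%), and 53% of rows lay above 0. Where no row differs, that threshold passes a share of 0.05 of the rows on average. The shares were 2.42% with all 14 animals and 5.55% without animals 30 and 43. Without overlap between the groups there were 5 rows above (0.0306%) and 1 below (0.00611%) with all 14 animals, and 14 above (0.0857%) and 24 below (0.147%) without animals 30 and 43. Full separation by chance is more frequent with fewer animals in a group, so the larger count does not show a larger effect. Without animals 33 and 40 the unadjusted count was 247, and without all 4 animals it was 310, again with 0 rows past the adjusted threshold.

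The 12 named genes with the strongest positive HT contrast are described next as a ranking. None passed the test, each with an adjusted p = 0.999 in limma, so the values are estimates with their errors and no change is claimed for any of them. They were ERMAP, EDARADD, PRR18, TNXB, PADI2, PALLD, PRRX1, SEMA4D, CECR2, ZNF536, TTYH2 and VWA1, with HT contrasts of 0.49 to 0.99. For 10 of the 12 the estimate was positive in hippocampus and negative in neocortex. The sign was the same against the occipital cortex alone and the prefrontal cortex alone in all 12. The ranking used hippocampus minus the mean of both cortical regions, so these signs follow largely from the choice of genes.

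PRR18, a small proline-rich protein abundant in oligodendrocytes, had regional differences of 0.13 to 1.23 in OvH-HT (median 0.53) and of -1.14 to 0.10 in OvH (median -0.06). All 7 OvH-HT animals lay above all 7 OvH animals, as in 5 of the 16354 rows tested (0.0306%). The lowest value was that of the library labelled 30 and the highest that of animal 40. The level of PRR18 in hippocampus was 861.5 ± 169 normalised reads in OvH-HT and 640.4 ± 283 in OvH, and in neocortex 617.3 ± 77.5 and 756.9 ± 286 (SD, n = 7 each). For PRR18 the HT contrast was 0.74 (SE 0.22), and 0.62 (SE 0.19) without animals 30 and 43.

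TNXB encodes tenascin-X, a glycoprotein of connective tissue matrix. Its regional difference was 0.34 to 1.58 in OvH-HT (median 0.46) and -0.38 to 0.29 in OvH (median -0.08), again without overlap. Animal 40 was far above the other OvH-HT animals. Hippocampal TNXB was 2638 ± 996 normalised reads in OvH-HT and 2027 ± 899 in OvH, and neocortical TNXB 1650 ± 223 and 1992 ± 584. For TNXB the HT contrast was 0.64 (SE 0.19), 0.51 (SE 0.19) without animals 30 and 43, and 0.46 without animals 33 and 40.

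PADI2, the peptidylarginine deiminase that citrullinates myelin basic protein in oligodendrocytes, was the most abundant of the 12. Its regional difference ran from -0.02 to 1.01 in OvH-HT (median 0.39) and from -0.22 to 0.15 in OvH (median -0.12), and 5 of 7 OvH-HT animals lay above all OvH animals. In hippocampus PADI2 had 19980 ± 4300 normalised reads in OvH-HT and 15810 ± 3770 in OvH, and in neocortex 14830 ± 901 and 16880 ± 3920. That gave PADI2 an HT contrast of 0.49 (SE 0.15), and 0.47 (SE 0.16) without animals 30 and 43.

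SEMA4D, a semaphorin that oligodendrocytes carry on their surface, showed 0.08 to 1.21 in OvH-HT (median 0.60) and -0.71 to 0.44 in OvH (median 0.23). The low OvH end was the library labelled 43 and the high OvH-HT end animal 40. SEMA4D had an HT contrast of 0.59 (SE 0.19), and 0.43 (SE 0.17) without animals 30 and 43. TTYH2, a membrane protein of the tweety family, had an HT contrast of 0.57 (SE 0.19) that came from a neocortical estimate of -0.31 and a hippocampal one of 0.27. Without animals 30 and 43 the hippocampal estimate of TTYH2 was -0.17 and the neocortical one -0.61, so its HT contrast of 0.44 then rested on the neocortex. VWA1, a matrix protein with a von Willebrand factor A domain, likewise had 0.12 in hippocampus and -0.57 in neocortex, and an HT contrast of 0.68, and 0.47 without animals 30 and 43.

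ERMAP and PRRX1 were positive in both regions. ERMAP, a membrane protein of the immunoglobulin superfamily first described on erythroid cells, ran from 0.31 to 0.72 in OvH-HT (median 0.64) and from -0.43 to 0.44 in OvH (median 0.03). Hippocampal ERMAP was 902.1 ± 268 normalised reads in OvH-HT and 545.1 ± 157 in OvH, against 621.1 ± 154 and 547.5 ± 125 in neocortex. ERMAP had an HT contrast of 0.55 (SE 0.16), and 0.42 (SE 0.14) without animals 30 and 43. PRRX1, a homeobox factor of mesenchymal cells, had 227.1 ± 46.2 normalised reads in OvH-HT hippocampus and 117.9 ± 53.9 in OvH hippocampus, with an HT contrast of 0.91 (SE 0.30), and 0.60 without animals 30 and 43. Its name is less certain, since only 50% of the 10 rows on each side of it in the table matched the amygdala.

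EDARADD, an adaptor protein of a receptor with a death domain, had the largest HT contrast of the 12, 0.99 (SE 0.29). Its regional difference was 0.87 to 1.71 in OvH-HT (median 1.22) and -0.79 to 1.11 in OvH (median 0.44). The pair of lowest OvH values were those of animals 43 and 30, and without them the HT contrast of EDARADD was 0.65 (SE 0.23). PALLD, which organises actin filaments, CECR2, a bromodomain protein of chromatin remodelling, and ZNF536, a zinc finger protein of the nervous system, had HT contrasts of 0.71, 0.70 and 0.53, and of 0.55, 0.54 and 0.54 without animals 30 and 43. In the amygdala, which the ranking did not use, the HT estimate was above 0.3 for ERMAP (0.59), PRRX1 (0.38), CECR2 (0.33) and ZNF536 (0.45). It was -0.91 for VWA1, and the values of the rest of the 12 are not given here. The limma adjusted p-values of the genes with a value given were 0.1 or more. The amygdala value of PRRX1 may be that of another transcript, since its name is less certain.

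**Figure D2:**
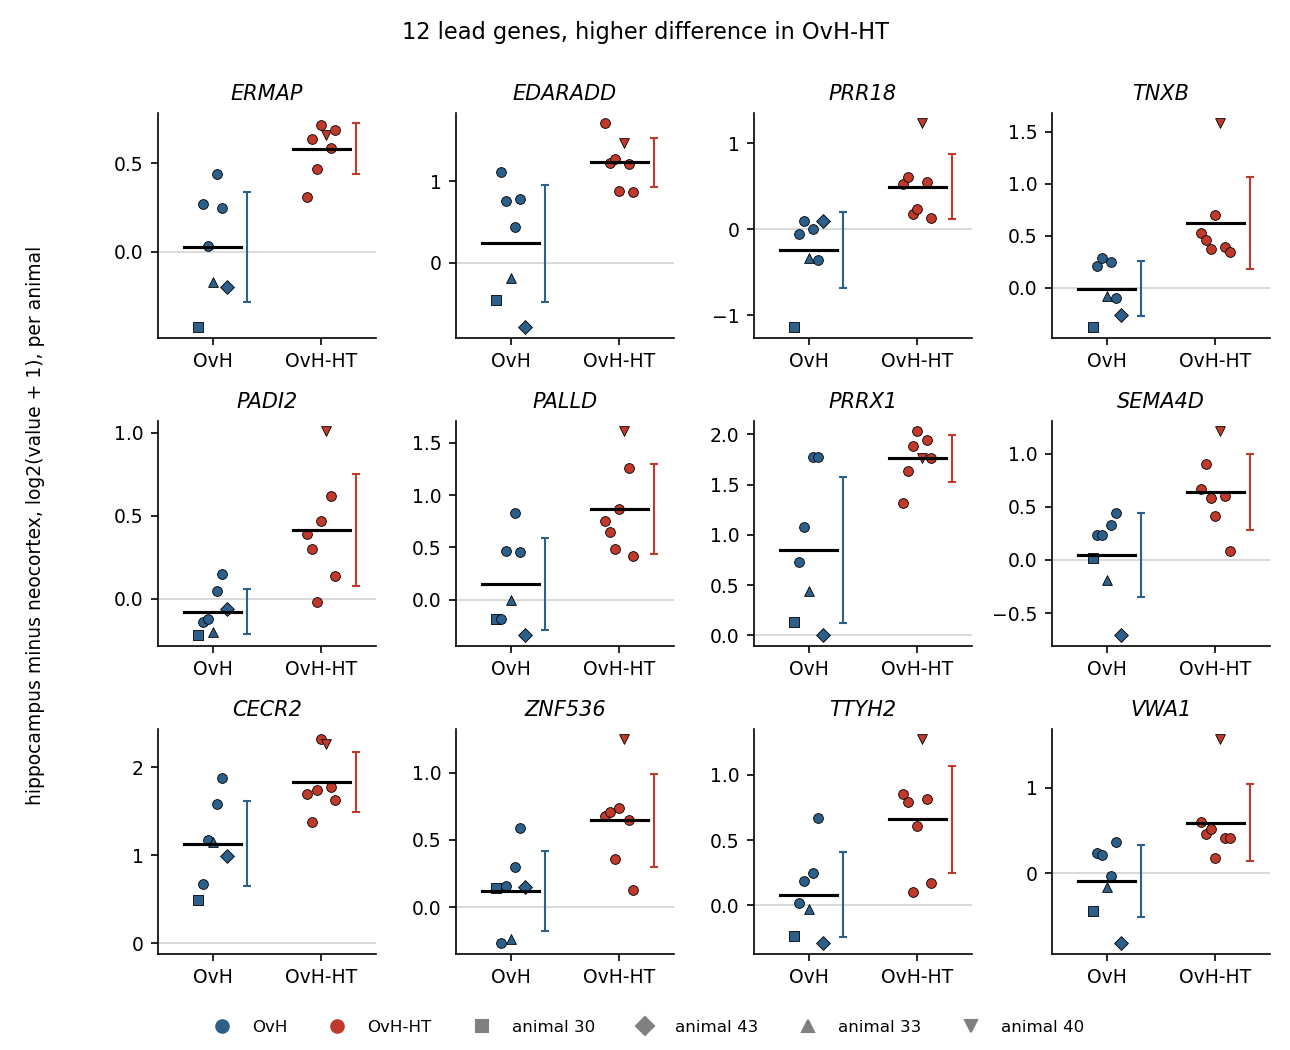
Regional difference (hippocampus minus neocortex, log2(value + 1)) of the 12 named genes with the strongest positive HT contrast, 1 point per animal, with the mean as a black bar and the SD (n = 7) beside it. Only PRR18 and TNXB have no overlap between OvH and OvH-HT, and animals 30, 43 and 40 lie at the ends of many panels.

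The 12 named genes with the strongest negative HT contrast were CHRDL2, RAP1GDS1, FNDC9, RMDN2, OCIAD1, RASL11B, CXCL14, LMO4, UAP1, SPAG6, EED and HYKK, with HT contrasts of -1.34 to -0.42. None passed the test (limma adjusted p = 0.999 for each), and in none were the groups without overlap. In 11 of the 12 the estimate was negative in hippocampus and positive in neocortex. The exception was FNDC9, which was negative in both.

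CHRDL2, a secreted antagonist of bone morphogenetic proteins, had regional differences of -1.31 to -0.15 in OvH-HT (median -0.68) and of -0.59 to 0.73 in OvH (median 0.16). Hippocampal CHRDL2 was 217.0 ± 67.6 normalised reads in OvH-HT and 346.4 ± 92.6 in OvH, against 339.5 ± 59.3 and 320.1 ± 60.5 in neocortex. CHRDL2 had an HT contrast of -0.77 (SE 0.24), -0.68 (SE 0.26) without animals 30 and 43 and -0.65 without animals 33 and 40. Against the prefrontal cortex alone it was -1.04 and against the occipital cortex alone -0.51.

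FNDC9, a protein with a fibronectin type III domain, had nearly the same HT contrast in each of the 3 reduced sets of animals. Its regional difference ran from -0.37 to 0.82 in OvH-HT (median 0.03) and from 0.01 to 1.14 in OvH (median 0.68). The high OvH-HT value was that of animal 42. Hippocampal FNDC9 was 521.4 ± 83.2 normalised reads in OvH-HT and 934.8 ± 315 in OvH. The HT contrast of FNDC9 was -0.62 (SE 0.21), -0.64 (SE 0.20) without animals 30 and 43, -0.63 without animals 33 and 40 and -0.66 without all 4. In amygdala the HT estimate for FNDC9 was -0.80 (adjusted p = 0.109).

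RAP1GDS1, a chaperone and exchange factor of small GTPases, had regional differences of -1.10 to 0.15 in OvH-HT (median -0.07) and of 0.05 to 0.86 in OvH (median 0.35), and 5 of 7 OvH-HT animals lay below all OvH animals. The HT contrast of RAP1GDS1 was -0.57 (SE 0.19), and -0.48 (SE 0.19) without animals 30 and 43. SPAG6, a protein of the central apparatus of motile cilia, had the widest spread. Its regional difference was -3.79 to -0.70 in OvH-HT and -2.65 to -0.07 in OvH, and its HT contrast of -1.34 (SE 0.50) was -0.93 (SE 0.51) without animals 30 and 43.

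Among the OvH animals the library labelled 43 had the highest regional difference for LMO4, RASL11B and UAP1. LMO4, a LIM-only cofactor of transcription that is patterned across the neocortex, had regional differences of -1.34 to -0.12 in OvH-HT and of -0.25 to 0.87 in OvH. The OvH maximum of LMO4 was 0.03 without animals 30 and 43. The HT contrast of LMO4 was -0.55 (SE 0.20), and -0.36 (SE 0.17) without both. CXCL14, a chemokine of a class of interneurons, gave -0.50 (SE 0.18), and -0.34 (SE 0.16) without both. RASL11B, a small GTPase, gave -0.68 (SE 0.24), and -0.36 (SE 0.18) without both; only 25% of the rows around it matched the amygdala, so its name is doubtful.

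RMDN2, a regulator of microtubules, OCIAD1, a protein of mitochondria and endosomes, UAP1, an enzyme of UDP-N-acetylglucosamine synthesis, EED, a core subunit of Polycomb repressive complex 2, and HYKK, hydroxylysine kinase, had HT contrasts of -0.72, -0.61, -0.42, -0.54 and -0.61, and of -0.51, -0.39, -0.35, -0.31 and -0.61 without animals 30 and 43. All 24 leading genes of both directions kept their sign without animals 30 and 43 and without animals 33 and 40, and 17 of the 24 kept an unadjusted p under 0.05 without animals 30 and 43. Since the genes were ranked on these values, their signs and p-values in the reduced sets say nothing independent.

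**Figure D3:**
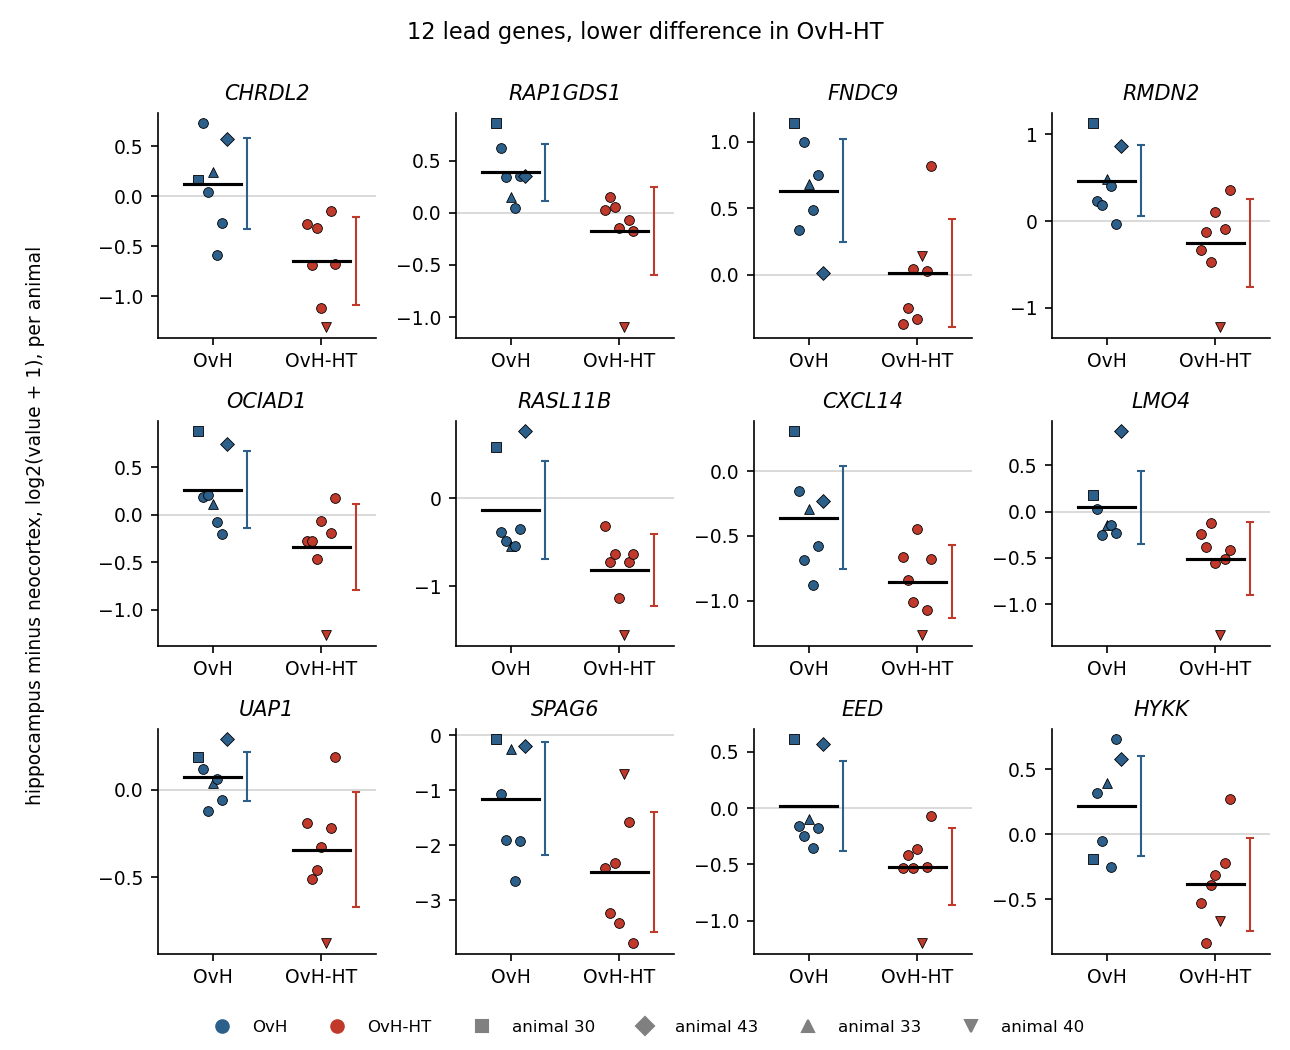
Regional difference (hippocampus minus neocortex, log2(value + 1)) of the 12 named genes with the strongest negative HT contrast, 1 point per animal, with the mean as a black bar and the SD (n = 7) beside it. The groups overlap in every panel, and the OvH point of animal 43 is the highest for LMO4 (0.87).

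Gene lists were then described by the number of members on either side of 0 and by their median, beside 53.9% above 0 and a median of 0.02 over all rows tested. Of all rows, 1.68% had an unadjusted p under 0.05 in limma with a positive HT contrast and 0.734% with a negative one. Without animals 30 and 43, 53% of all rows lay above 0, with a median of 0.02. No member of any list passed the adjusted threshold. Among the lists with at least 5 members shown, the highest medians were those of the vessel wall, choroid plexus, oligodendrocyte, dentate neurogenesis and matrix lists, and the lowest those of the neocortical neuron, respiratory chain and interneuron lists. The red blood cell list had 1 member shown, the haemoglobin subunit HBA, at 0.85 (SE 0.50), and 0.69 without animals 30 and 43. In pieces of tissue, fewer cells of a type and less RNA per cell cannot be told apart.

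Oligodendrocytes wrap axons in myelin, and 14 of the 20 listed oligodendrocyte and myelin genes met the rule for names. The HT contrast was above 0 for 13 of the 14, with a median of 0.43, and 2 of them, FA2H and CNTN2, had an unadjusted p under 0.05. The median HT effect over these members was 0.49 in hippocampus and 0.13 in neocortex, and without animals 30 and 43 it was 0.19 in hippocampus. FA2H, which makes the 2-hydroxy fatty acids of myelin lipids, had an HT contrast of 0.53 (SE 0.23), and 0.35 without animals 30 and 43, with 3840 ± 1020 normalised reads in OvH-HT hippocampus and 2882 ± 1420 in OvH hippocampus. CNTN2, an adhesion molecule of the axon next to the node of Ranvier, had 0.52 (SE 0.23), 0.49 without animals 30 and 43 and 0.31 without animals 33 and 40. MOG, a glycoprotein of the outer myelin surface, had 0.44, CNP, an enzyme of myelin membranes, 0.50, and UGT8, which makes galactocerebroside, 0.36, and without animals 30 and 43 they had 0.37, 0.26 and 0.38. SOX10, the transcription factor of the lineage, was the only member below 0, at -0.35.

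The mean regional difference over the 14 myelin members ran from 0.23 to 1.10 in OvH-HT (median 0.63) and from -0.09 to 0.92 in OvH (median 0.23). The groups overlapped: OvH animal 35 lay at 0.92, above 6 of 7 OvH-HT animals, and OvH-HT animals 38 and 42 lay at 0.23 and 0.31. In hippocampus the summed level of the members was 371100 to 700300 normalised reads in OvH-HT (median 483200) and 187400 to 559100 in OvH (median 385500), with both lowest sums in the libraries labelled 30 and 43. The list median was 0.36 without animals 30 and 43 (13 of 14 above 0), 0.30 without animals 33 and 40, and 0.17 without all 4 animals (12 of 14 above 0). Taking the prefrontal cortex alone as reference gave 0.50 and the occipital cortex alone 0.38. Of the 7 oligodendrocyte precursor genes shown, 6 lay above 0 (median 0.25), and the median was 0.13 without animals 30 and 43. PRR18, PADI2 and SEMA4D, described above, were not on these lists.

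The extracellular matrix list holds collagens, laminins, basement membrane proteins and the proteoglycans of perineuronal nets. Of its 28 members shown, 27 lay above 0, with a median of 0.33, and 1, COL4A2, had an unadjusted p under 0.05. COL4A2, a chain of the type IV collagen of basement membranes, had an HT contrast of 0.47 (SE 0.19), and 0.37 without animals 30 and 43, with an estimate of 0.24 in hippocampus and -0.23 in neocortex. The neural proteoglycans VCAN and NCAN lay at 0.49 and 0.51, and TNR, tenascin-R of perineuronal nets, at 0.49. COL6A1 and COL6A3, chains of type VI collagen, lay at 0.59 and 0.72, and ACAN, aggrecan, at 0.13. TNR lay at 0.90 and ACAN at 0.04 without animals 30 and 43. LAMB1, a laminin chain, was the only member below 0, at -0.25.

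Per animal, the mean over the matrix members was -0.20 to 1.35 in OvH-HT (median 0.17) and -0.56 to 0.57 in OvH (median 0.01). Animals 40 and 41, at 1.35 and 0.92, stood above the other OvH-HT animals, which lay between -0.20 and 0.29 and among the OvH values. Without animal 40 the median HT contrast of the extracellular matrix list was 0.15. Without animals 30 and 43 it was 0.30, with 25 of 28 above 0, and without all 4 animals 0.25, with 23 above 0.

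The same 2 animals carried high levels of vessel wall and meningeal genes in hippocampus. The 10 pericyte and smooth muscle genes shown had a mean regional difference of 1.77 in animal 40 and 1.2 in animal 41, against -0.49 to 0.12 in the other OvH-HT animals and -0.74 to 0.69 in OvH. The summed hippocampal level of these genes was 26680 in animal 40 and 29200 in animal 41, and 5124 to 14700 in the other 12. The 9 meningeal fibroblast genes had 1.38 in animal 40 and 1.96 in animal 41, against -0.81 to 1.12 in the others. The median HT contrast of the pericyte and smooth muscle list was 0.51 (8 of 10 above 0), 0.30 without animals 30 and 43 and 0.17 without animal 40. PI16, a marker of fibroblasts around vessels, had an HT contrast of 1.08 (SE 0.38), and 0.71 without animals 30 and 43. Its list as a whole lay lower: the 9 meningeal fibroblast genes had a median of 0.08, 0.14 without animals 30 and 43 and -0.15 without animal 41, and the collagen chains COL1A2 and COL3A1 lay at 0.02 and 0.07. Of 12 endothelial genes shown, 4 lay above 0, with a median of -0.06, and 1 of 12 without animals 30 and 43, with a median of -0.17. EMCN, the sialomucin endomucin of endothelium, was the endothelial member with an unadjusted p under 0.05, at -0.40 (SE 0.18), and -0.32 without animals 30 and 43. The part of these tissues in the matrix values was not tested.

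**Figure D4:**
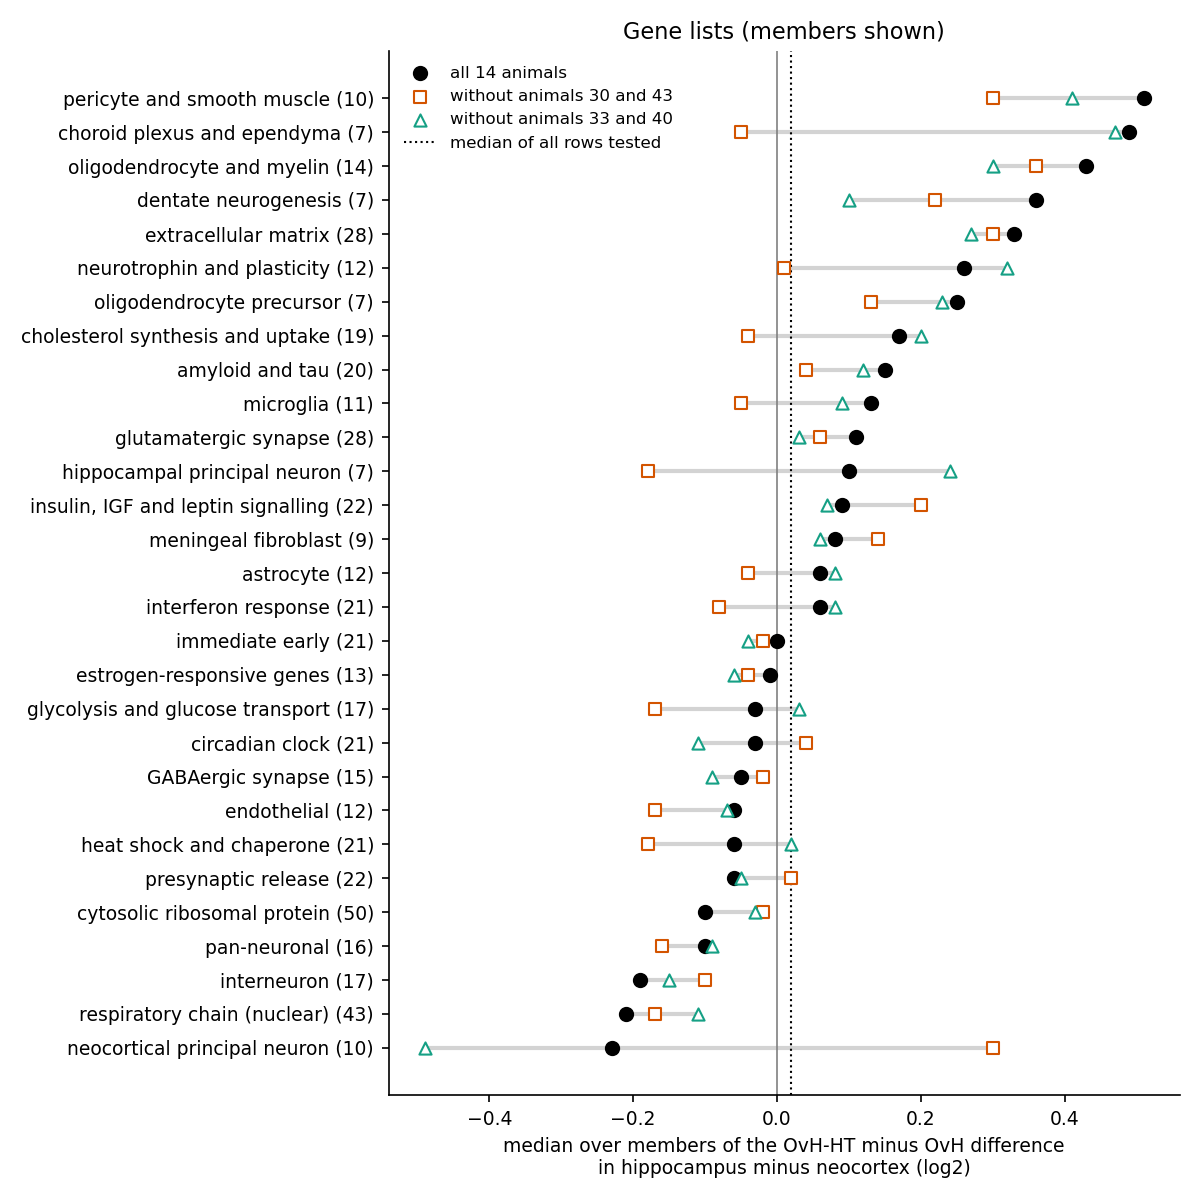
Median HT contrast (log2) over the members shown of each gene list with at least 5 such members, with all 14 animals (black), without animals 30 and 43 (orange squares) and without animals 33 and 40 (green triangles). The dotted line is the median of all rows tested, 0.02. The neocortical principal neuron list moves from -0.23 to 0.30 when animals 30 and 43 are left out. The oligodendrocyte, extracellular matrix, and pericyte and smooth muscle lists stay at 0.27 or above in all 3 sets of animals. In fits not drawn, the oligodendrocyte median is 0.17 without animals 30, 33, 40 and 43. Without animal 40 alone the matrix median is 0.15 and the pericyte and smooth muscle median 0.17.

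The medians of both principal neuron lists changed sign when animals 30 and 43 were left out. The 10 neocortical principal neuron genes shown had a median of -0.23 with all animals, 0.30 without animals 30 and 43 and -0.49 without animals 33 and 40. The 7 hippocampal principal neuron genes had 0.10, -0.18 and 0.24. FIBCD1 went from 1.01 to -0.61 and C1QL2 from 0.09 to -0.58 when animals 30 and 43 were left out. PROX1, the transcription factor of dentate granule cells, stayed at 0.82 (SE 0.43) and 0.83. DSP, desmoplakin, ranged most between animals, with regional differences from -4.38 to 3.48.

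Pan-neuronal genes were below 0 in 14 of the 16 shown, with a median of -0.10, and -0.16 without animals 30 and 43. SNAP25, a membrane fusion protein of synaptic vesicles, lay at -0.30 and STMN2, a neuronal microtubule regulator, at -0.35, while MAP2, a dendritic microtubule protein, lay at 0.17, and at 0.49 without animals 30 and 43. Of 17 interneuron genes 13 lay below 0 (median -0.19, and -0.10 without animals 30 and 43). RELN, the secreted glycoprotein reelin, was the interneuron member with an unadjusted p under 0.05 and lay above 0, at 0.56 (SE 0.26). Its hippocampal level was 14510 ± 3570 normalised reads in OvH-HT and 9048 ± 2310 in OvH, and its neocortical level 7326 ± 1390 and 7382 ± 2850. RELN had an HT contrast of 0.60 without animals 30 and 43 and of 0.30 without animals 33 and 40.

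Synaptic lists had members on both sides of 0. Of 28 glutamatergic synapse genes 18 were above 0 (median 0.11), of 15 GABAergic synapse genes 5 (median -0.05) and of 22 presynaptic release genes 10 (median -0.06). The glutamatergic median was 0.06, the GABAergic -0.02 and the presynaptic 0.02 without animals 30 and 43. GRIN2B, an NMDA receptor subunit, lay at 0.37, and GRIK1, a kainate receptor subunit, at -0.43. Among 7 dentate neurogenesis genes 5 lay above 0 (median 0.36), with NES, the filament protein of neural progenitors, at 0.74 (SE 0.32) and DCX, doublecortin of immature neurons, at 0.36. NES lay at 0.34 and DCX at 1.05 without animals 30 and 43, and without animals 33 and 40 DCX lay at -0.11. The median of the dentate neurogenesis list was 0.22 without animals 30 and 43, 0.10 without animals 33 and 40 and 0.04 with the occipital cortex alone as reference.

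Several other lists had medians nearer to 0, or below it, without animals 30 and 43. The 12 neurotrophin and plasticity genes shown had 11 members above 0 and a median of 0.26, and without animals 30 and 43 they had 8 above 0 and a median of 0.01. BDNF, the brain-derived neurotrophic factor, went from 0.49 to -0.10, NTF3, neurotrophin 3, from 0.77 to -0.60, and NGFR, the low-affinity neurotrophin receptor, from 0.90 to 0.01. The per-animal mean was 1.09 to 1.42 in OvH-HT and 1.06 to 1.32 in the 5 OvH animals other than 30 and 43. SORT1, the sorting receptor sortilin, lay at 0.50 and 0.54, and at 0.26 without animals 33 and 40.

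Cholesterol synthesis and uptake genes had 16 of 19 above 0 and a median of 0.17, and 8 of 19 and -0.04 without animals 30 and 43. Microglial genes had 10 of 11 above 0 (median 0.13), and 4 of 11 (median -0.05) without animals 30 and 43. Choroid plexus and ependymal genes went from a median of 0.49 to -0.05, and to 0.03 without animal 40 alone. Astrocyte genes had 8 of 12 above 0 (median 0.06), and 3 of 12 (median -0.04) without animals 30 and 43. Amyloid and tau genes had 16 of 20 above 0 (median 0.15), and 13 of 20 (median 0.04); APOE, the lipid carrier of the brain, went from 0.35 to -0.10.

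Energy and protein synthesis genes lay on the other side. Of 43 nuclear-encoded respiratory chain genes shown, 38 were below 0, with a median of -0.21, and the median HT effect was -0.17 in hippocampus and 0.04 in neocortex. ATP5PB and ATP5F1C, subunits of ATP synthase, lay at -0.27 and -0.34, COX7C of cytochrome c oxidase at -0.41 (-0.28 without animals 30 and 43), and NDUFB2 of complex I at 0.20. The per-animal mean ran from -0.66 to 0.47 in OvH-HT (median -0.29) and from -0.72 to 0.76 in OvH (median -0.01). The OvH extremes were the libraries labelled 30, at -0.72, and 43, at 0.76. The median of the respiratory chain (nuclear) list was -0.17 without animals 30 and 43 (40 of 43 below 0), -0.11 without animals 33 and 40, -0.06 without all 4 animals, -0.05 without animal 43 and -0.33 without animal 42.

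Cytosolic ribosomal protein genes had 47 of 50 below 0 and a median of -0.10. The animals spread from -0.94 to 0.90 in OvH-HT and from -1.08 to 1.52 in OvH, again with the libraries labelled 30 and 43 at the OvH ends. Without animals 30 and 43 the median was -0.02 with 31 of 50 below 0, and without animals 33 and 40 it was -0.03 with 35 of 50 below 0. Without animal 30 the median of the cytosolic ribosomal protein list was -0.28, without animal 43 it was 0.15, and without all 4 animals it was 0.09 with 47 of 50 above 0, so its direction was not stable. LDHA, the lactate dehydrogenase subunit of glycolysis, lay at -0.37 (SE 0.14), and -0.33 without animals 30 and 43, with 12830 ± 727 normalised reads in OvH-HT hippocampus and 14660 ± 3130 in OvH hippocampus. PFKFB2, an enzyme that sets the level of fructose 2,6-bisphosphate, was the other glycolysis member with an unadjusted p under 0.05 and lay above 0, at 0.41, and at 0.51 without animals 30 and 43. The 17 glycolysis and glucose transport genes had a median of -0.03, -0.17 without animals 30 and 43 and 0.03 without animals 33 and 40.

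**Figure D5:**
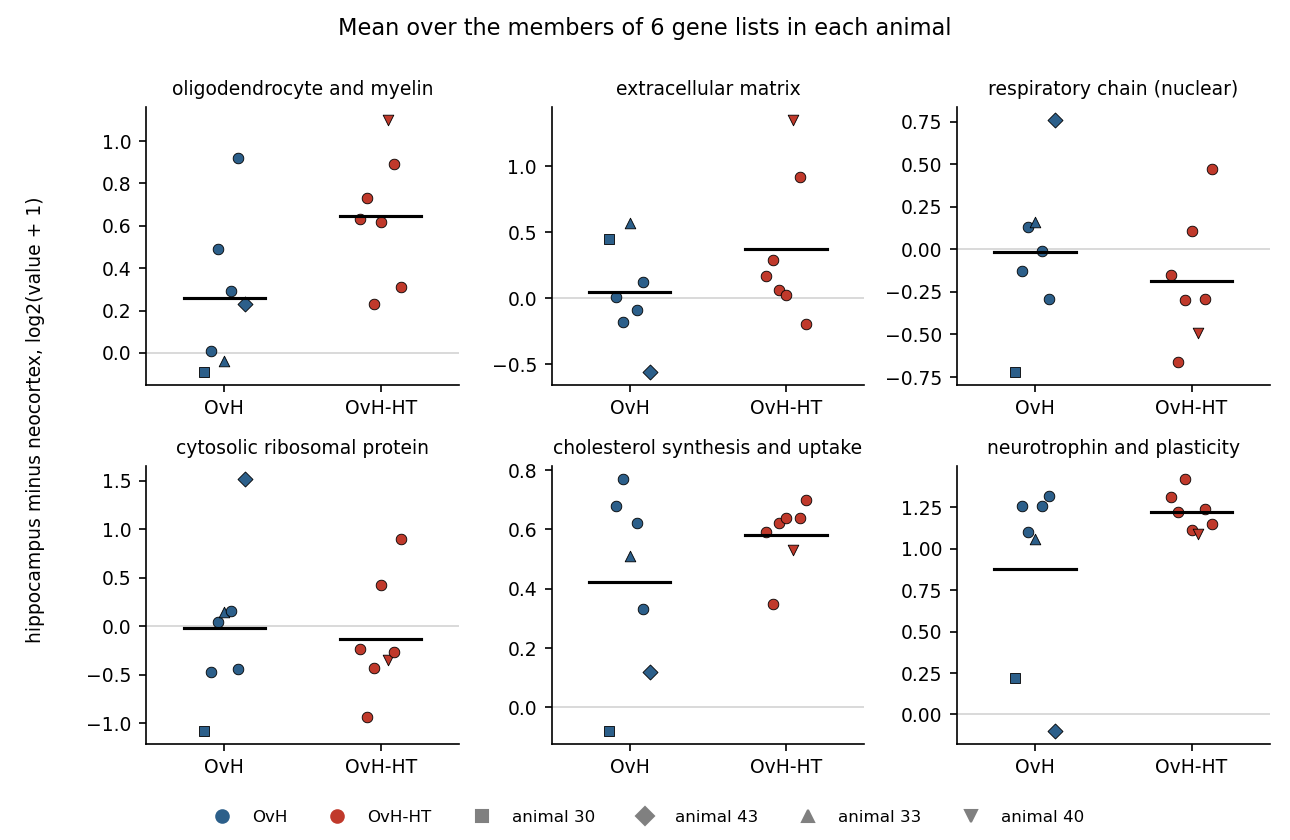
Mean regional difference (hippocampus minus neocortex, log2(value + 1)) over the members shown of 6 gene lists, 1 point per animal, with the group mean as a black bar. Animals 30 and 43 lie below all others in the neurotrophin and plasticity list and at the 2 ends of the OvH group in the respiratory chain and ribosomal protein lists.

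Estrogen receptors and known targets of estradiol completed the lists. Of 6 estrogen and progesterone receptor genes, PGRMC1 and PGRMC2, membrane-associated progesterone receptor components, met the rule for names. PGRMC2 lay at -0.22 and PGRMC1 at -0.04, and PGRMC1 lay at -0.23 without animals 30 and 43 and at 0.17 without animals 33 and 40. Among 13 estrogen-responsive genes shown, 6 were above 0 and 7 below (median -0.01, and -0.04 without animals 30 and 43). TGFA, transforming growth factor alpha, was the member with an unadjusted p under 0.05, at 0.44 (SE 0.18), at 0.52 without animals 30 and 43 and at 0.27 without animals 33 and 40. TGFA had 1081 ± 221 normalised reads in OvH-HT hippocampus and 860.4 ± 255 in OvH hippocampus, and 581.6 ± 134 and 620.6 ± 96.3 in neocortex. GREB1, a coactivator bound to the estrogen receptor, lay at 0.58 (SE 0.27), with 710.9 ± 186 normalised reads in OvH-HT hippocampus, 484.2 ± 170 in OvH hippocampus and 646.1 ± 176 and 649.9 ± 208 in neocortex. The HT contrast of GREB1 was 0.60 without animals 30 and 43 and 0.31 without animals 33 and 40.

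Of 22 insulin, IGF and leptin signalling genes, 16 lay above 0 (median 0.09), and 18 without animals 30 and 43 (median 0.20). IGFBP5, a binding protein of insulin-like growth factors, had regional differences of 0.74 to 2.50 in OvH-HT (median 1.38) and 0.03 to 1.06 in OvH (median 0.90). Its hippocampal level was 17230 ± 6110 normalised reads in OvH-HT and 14060 ± 6760 in OvH, and its neocortical level 6725 ± 1660 and 8601 ± 4230. The HT contrast of IGFBP5 was 0.69 (SE 0.24), and 0.59 without animals 30 and 43. Heat shock and chaperone genes had 15 of 21 below 0 (median -0.06), 19 of 21 (median -0.18) without animals 30 and 43, and 8 of 21 (median 0.02) without animals 33 and 40. Interferon response genes had 13 of 21 above 0 (median 0.06), and 5 of 21 (median -0.08) without animals 30 and 43. Circadian clock and immediate early genes had medians of -0.03 and 0.00, and of 0.04 and -0.02 without animals 30 and 43.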

How the data were processed

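Messenger RNA libraries (TruSeq stranded) were made from pulverised tissue of each region and sequenced as read pairs on an Illumina HiSeq, per the labels' protocols. Per the submitters' processing notes, FastQC 0.1.1.2, Trimmomatic, STAR 2.7.3a, edgeR 3.28.0 and the build Mmul_10 were used; the counting program and its annotation are not given in the sources used here. Values in the deposited table are the authors' upper-quartile normalised signal for 17807 identifiers, and gene symbols matched 15123 of them. Undoing the scaling gave whole reads for 100% of values (tolerance 0.01 reads).

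The regional difference per animal, in log2 of the value plus 1, was tested with limma 3.58.1 in R 4.3.3 (intensity trend, two-sided, Benjamini-Hochberg adjustment, threshold 0.05). The 16354 rows whose mean over the 42 libraries reached 10 were tested. The alternatives were edgeR 4.0.16 and DESeq2 1.42.0 on the recovered reads, with the animal as block for the HT contrast. Other pseudocounts, filters, scalings and cortical references, and animals left out, were also used. The method was also run on simulated data in which an animal shifted its regions alike and no library stood apart. That run therefore does not show the power of the test in these data.

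The animal number in the labels pairs the regions. Deviations from group means correlated within an animal at a mean of 0.306 (hippocampus and occipital cortex), 0.40 (hippocampus and prefrontal cortex) and 0.377 (both cortical regions), over 14 animals. P-values of limma on the per-animal values measure the spread between animals. Within hippocampus and within neocortex, edgeR and DESeq2 were fitted to the reads per animal with no block. For neocortex the reads of both cortical regions were summed. For the HT contrast edgeR and DESeq2 were fitted to the libraries, with the animal as block. Their p-values for the HT contrast, including that of the DESeq2 call for NMRK2, therefore also rest on the spread between libraries of the same animal. The fits with no replicate block, or with that block as a random effect, likewise used the libraries rather than per-animal differences.

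Named genes had a matching level, a symbol on 1 row and a mean of at least 100. They were the 12 with the smallest p in each direction, the 2 with the smallest p per list, the hormone receptors and the principal neuron markers. Genes leading without animals 30 and 43 were added later, 6 in each direction. Other list members were named as examples after their values were seen. The comparison, the lists and the left-out animals were chosen with earlier results of these data known. A few genes that this rule or the lists held are not reported here by name. Sequences were not used here.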

Additional observations from a re-analysis of the deposited data

Results flagged for a closer look

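A check for single animals far from the rest of their group was run on 106 groups of 7 values, and 17 groups (16%) held one, where chance gives about 1 in 20. Animal 40 accounted for 8 of the 17, animal 43 for 5, animal 30 for 3 and animal 42 for 1.

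Among the leading genes, OvH-HT animal 40 was far from the other OvH-HT animals for PRR18 (regional difference 1.23), TNXB (1.58), VWA1 (1.57), RAP1GDS1 (-1.10), LMO4 (-1.34) and EED (-1.20). For PRR18 animal 40 was only at the limit of the check. OvH-HT animal 42 was far from its group for FNDC9 (0.82). In the OvH group the library labelled 30 was far from the others for PRR18 (-1.14) and that labelled 43 for LMO4 (0.87).

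Among the mean regional differences of gene lists, animal 40 stood apart for choroid plexus and ependyma (5.20) and for interneuron genes (-0.66). The library labelled 43 stood apart for estrogen-responsive genes (-0.23), astrocyte genes (-0.17), glycolysis and glucose transport (-0.43) and amyloid and tau (-0.36). The library labelled 30 stood apart for presynaptic release (0.32) and for insulin, IGF and leptin signalling (0.48).

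In the amygdala libraries, which the comparison did not use, animal 32 (OvH) had 113.2 normalised reads of RPS4Y1, 31.0 of DDX3Y and 57.96 of USP9Y. The highest values in the other 13 amygdala libraries were 7.96, 3.59 and 5.31.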

How the results depend on the processing

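For hippocampus minus neocortex, 0 rows passed the adjusted threshold in the main setting and under each alternative but DESeq2, which called 1. Leaving out 1 animal at a time gave 0 to 0. The fit with no replicate block gave 0 calls (265 rows at an unadjusted p under 0.05), and the replicate block as a random effect gave 0 (522 rows). The unadjusted count ran from 142 with the occipital cortex as reference to 1539 with array weights. In hippocampus alone 0 rows became 1 with equal totals and 12 by DESeq2, and leaving out 1 animal gave 0 to 0. In neocortex alone 0 became 1 with a pseudocount of 10, 1 with array weights and 5 by DESeq2, and leaving out 1 animal gave 0 to 2, with 1 without animal 34 and 2 without animal 42.

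Of 125 named genes followed over 31 settings, 92 kept their sign in each, and 112 of 3874 values turned. Without animals 30 and 43 the HT contrast turned to -0.02 for ALDH1L1, -0.05 for TTR, -0.56 for CFAP126, -0.61 for FIBCD1, -0.03 for BCL11B, -0.18 for MAN1A1, -0.58 for C1QL2, -0.03 for C1QL3, 0.41 for MEF2C, -0.40 for FEZF2, 0.28 for TBR1, 0.65 for CUX2, 0.31 for RASGRF2, 0.72 for RORB, -0.73 for HPCA, -0.10 for APOE, -0.10 for BDNF and -0.60 for NTF3. Without all 4 doubted animals, a setting added after the data were seen, it was -0.02 for ALDH1L1, -0.23 for CFAP126, -0.56 for FIBCD1, -0.24 for BCL11B, 0.02 for RPL15, 0.09 for RPL37, -0.02 for MAN1A1, -0.47 for C1QL2, -0.06 for C1QL3, 0.32 for MEF2C, -0.28 for FEZF2, 0.11 for TBR1, 0.30 for CUX2, 0.05 for RASGRF2, 0.26 for RORB, -0.56 for HPCA, -0.01 for NDUFB2, -0.03 for APOE, -0.05 for ACAN and -0.60 for NTF3. With array weights it was -0.02 for ALDH1L1, -0.00 for TREM2, 0.00 for FLT1, -0.05 for DES, -0.32 for CFAP126, -0.01 for FIBCD1, -0.06 for MAN1A1, -0.39 for C1QL2, 0.36 for MEF2C, -0.05 for CUX1, -0.21 for FEZF2, 0.32 for TBR1, 0.42 for CUX2, 0.32 for RASGRF2, 0.46 for RORB, -0.35 for HPCA, -0.19 for APOE and -0.33 for NTF3. Without animals 33 and 40 it was 0.17 for PGRMC1, -0.00 for CUX1, -0.08 for BTAF1, -0.12 for ZNF81, -0.35 for PTCHD1 and -0.11 for DCX. Against the occipital cortex it was -0.03 for MAN1A1, -0.00 for BTAF1, -0.08 for ZNF81, -0.11 for PTCHD1, -0.03 for DCX and -0.10 for MAP2, and against the prefrontal cortex -0.04 for C1QL2, -0.08 for DSP and -0.02 for FEZF2. DESeq2 gave -0.07 for C1QL2, -0.01 for FEZF2, -0.11 for PTCHD1 and -0.12 for HPCA, edgeR -0.06 for C1QL2, -0.19 for PTCHD1 and -0.11 for HPCA, and a pseudocount of 10 gave -0.05 for PTCHD1. With 1 animal left out, the sign turned for 16 genes, which ran from -0.13 to 0.13 (PGRMC1), -0.12 to 0.20 (MAN1A1), -0.23 to 0.37 (C1QL2), -0.01 to 0.25 (C1QL3), -0.49 to 0.78 (DSP), -0.48 to 0.09 (MEF2C), -0.02 to 0.18 (CUX1), -0.16 to 0.19 (FEZF2), -0.39 to 0.06 (TBR1), -0.58 to 0.20 (CUX2), -0.49 to 0.14 (RASGRF2), -1.07 to 0.14 (RORB), -0.02 to 0.37 (BTAF1), -0.06 to 0.44 (ZNF81), -0.25 to 0.59 (PTCHD1) and -0.28 to 0.29 (HPCA). The cause was not tested. NMRK2 passed only with DESeq2 (-2.07). Of 899 list medians, 11 moved by more than 1 SD between animals, and 14 of 29 lists kept their sign whichever single animal was left out. Contrasts of the size reported here could not be told from 0 after adjustment.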

Other observations

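Without animals 30 and 43 a different set of genes led the ranking, again without a call (limma adjusted p = 0.831 or more). The 6 leading negative genes were CA4, ABHD12, TESC, HPCA, DYNC1I2 and TUBA8. HPCA, the calcium sensor hippocalcin of hippocampal pyramidal neurons, had a regional difference of 1.43 to 2.93 in the 7 OvH-HT animals (median 2.66) and of 3.06 to 3.46 in the 5 OvH animals (median 3.22), without overlap. Its hippocampal level was 79170 ± 23500 normalised reads in OvH-HT (SD, n = 7) and 116000 ± 20000 in those OvH animals (SD, n = 5), and its HT contrast was -0.73 (SE 0.21), against 0.11 (SE 0.50) with all 14 animals. DYNC1I2, an intermediate chain of cytoplasmic dynein, also had no overlap, with -1.55 to -0.95 in OvH-HT and -0.87 to -0.28 in OvH, and an HT contrast of -0.51 (SE 0.15). In this set 24 of 16342 rows (0.147%) had all OvH-HT animals below all OvH animals. HPCA and DYNC1I2 were picked for small p-values in the same set, so their separation is not independent support. CA4, a carbonic anhydrase of capillary endothelium and myelin, had -0.82 (SE 0.19), with 0.16 to 0.93 in OvH-HT and 0.61 to 1.72 in OvH. TESC, a calcium-binding protein, had -0.63 (SE 0.16) and ABHD12, a lysophosphatidylserine lipase, -0.40 (SE 0.10).

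The 6 leading positive genes in that set were BTAF1, PFKFB2, FAT4, ZNF81, PRR18 and PTCHD1. PFKFB2, which sets the level of fructose 2,6-bisphosphate, had an HT contrast of 0.51 (SE 0.14), with 0.08 to 0.52 in OvH-HT and -0.63 to 0.09 in OvH. FAT4, an atypical cadherin, had 0.87 (SE 0.25), with 947.7 ± 264 normalised reads in OvH-HT hippocampus and 525.0 ± 104 in the 5 OvH animals. PRR18 was the only gene in the leading sets with and without animals 30 and 43. These genes were listed after the data were seen.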
